A study of Rattus norvegicus with 78 samples.

Results

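DBCP (1,2-dibromo-3-chloropropane) is a soil fumigant that damages male germ cells, and the measurement described here is whether the difference between DBCP-treated and vehicle-treated rat sperm RNA was itself different after a recovery period. The quantity is a difference of differences, called the interaction below: DBCP-Recovery minus Corn Oil Control-Recovery, less DBCP minus Corn Oil Control, on the log2 scale. An interaction above 0 means that the DBCP difference lay higher after recovery than without it, and one below 0 that it lay lower. All 78 arrays of the series entered it, chosen by the group in their titles: 20 Corn Oil Control, 20 DBCP, 19 Corn Oil Control-Recovery and 19 DBCP-Recovery.

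The animals were Fischer 344 rats given DBCP at 5 mg/kg/day or the corn oil vehicle alone for 3 months, and the recovery groups were kept for a further time, of a length that the labels do not state. The labels give no age and no genetic modification for any group. RNA came from sperm released from the punctured cauda epididymis, after a buffer that lyses red blood cells, although the series title speaks of testis. The labels call the arrays of a group biological replicates, so p-values measure the spread between these samples.

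Sperm are nearly silent in transcription, and the RNA they carry is mostly left from the spermatid stage, when genes for chromatin packing (protamines, transition proteins), the tail (fibrous sheath and outer dense fibre proteins) and sperm-specific glycolysis are transcribed. Fluid from a cut epididymis also holds cells other than sperm. Markers of sperm were bright: Odf1 (an outer dense fibre protein) lay at 13.84 to 14.26 over the 78 arrays and Smcp (a mitochondrial capsule protein) at 13.87 to 14.29. Markers of other cells were present too, with Cd74 (antigen presentation, leukocytes) at 10.21 to 12.3, Hbb (beta globin) at 10.89 to 12.77 and Dcn (decorin, stroma) at 9.06 to 12.38. A smaller number of cells of a type and less RNA per cell cannot be told apart in such samples. Array medians lay between 6.55 and 6.75, the lowest correlation between any 2 arrays was 0.860, and 6 arrays stood apart with limma quality weights under 0.5, namely DBCP replicates 2, 13 and 20, Corn Oil Control-Recovery replicate 11 and DBCP-Recovery replicates 7 and 15.

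No probe set passed the test. Of 29214 probe sets, 0 (0%) had a limma adjusted p under 0.05 for the interaction, and the lowest adjusted p was 0.454, shared by 2501 probe sets. At an unadjusted p under 0.05 there were 3170 probe sets, against 1461 that this threshold alone gives: 1745 above 0 (5.97% of all probe sets) and 1425 below 0 (4.88%). The 55.0% above 0 became 39.0% when each array was centred on its own median; the array medians themselves had an interaction of 0.03. Without DBCP-Recovery replicate 7, the array of lowest weight, the count was 5712 in place of 3170, with 0 past the adjusted threshold, and without Corn Oil Control-Recovery replicate 11 it was 2333. All named values below therefore describe genes that did not pass, and the words above and below 0 give the sign of an estimate.

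The estimates were small. The median standard error of an interaction was 0.086, and the middle 90% of probe sets lay between -0.24 and 0.22. An interaction over 0.5 in size was seen for 147 probe sets, 16 above 0 and 131 below, and over 1 for 0 probe sets. Counted once per gene, 822 of 14506 genes (5.67%) were above 0 and 983 (6.78%) below at an unadjusted p under 0.05, and the median over genes was 0.01.

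The sign of the interaction went with the level of the probe set. When probe sets were cut into 10 bins of nearly equal size by mean level, the median interaction was 0.062 in the dimmest bin and 0.079 in the next, 0.028 in bin 6 and -0.050 in the brightest. In the brightest bin, which holds most of the sperm genes named here, 82 of 2922 probe sets (2.81%) were above 0 and 585 (20.0%) below at an unadjusted p under 0.05. After quantile normalization the balance of this bin turned: 413 probe sets were above 0 and 341 below at that threshold, with a median of 0.02. On the deposited values, counts for lists of bright members are set beside the 20.0% of this bin, and counts for other lists beside the 6.78% over genes. That 6.78% counts genes of every bin, the brightest included. At that threshold 15 of 2922 probe sets were below 0 in the dimmest bin and 326 of 2921 in bin 9. The span of an array, meaning the mean of the brightest bin less the mean of the dimmest, moved the same way: it averaged 4.83 ± 0.12 (SD, n = 20) in Corn Oil Control, 4.92 ± 0.12 (SD, n = 20) in DBCP, 4.85 ± 0.11 (SD, n = 19) in Corn Oil Control-Recovery and 4.81 ± 0.09 (SD, n = 19) in DBCP-Recovery, an interaction of -0.13 ± 0.05 (SE). With the span as a covariate, 717 probe sets had an unadjusted p under 0.05. The span is built from the same probe sets as the interaction, and its part in the values below was not tested.

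**Figure D1:**
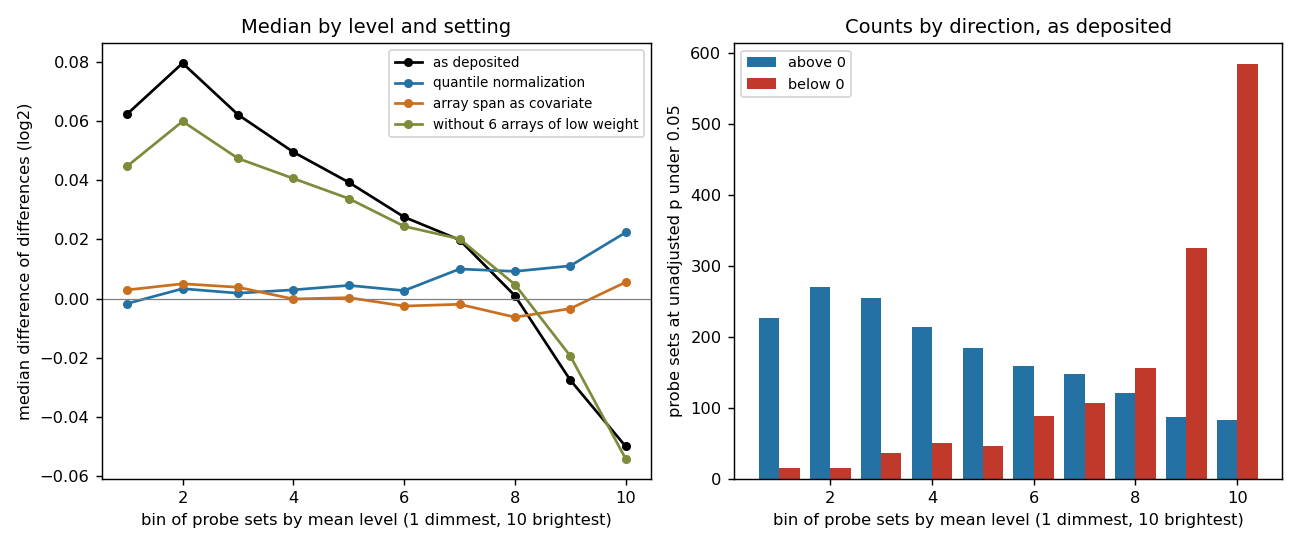
Left, the median interaction (log2, y axis) in each of 10 bins of probe sets by mean level (x axis) for the deposited values, after quantile normalization, with the array span as a covariate and without 6 arrays of low weight; right, probe sets at an unadjusted p under 0.05 in each bin, above 0 in blue and below 0 in red. The deposited values go from 0.062 in the dimmest bin to -0.050 in the brightest, where 585 probe sets lie below 0 and 82 above, while quantile normalization gives medians from -0.002 to 0.022, with 413 above 0 and 341 below in the brightest bin, and the span covariate stays near 0.

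Among genes above 0, the smallest unadjusted p belonged to Rab18, a small GTPase of lipid droplets and the endoplasmic reticulum. Its lowest, median and highest values were 7.22, 7.47 and 7.98 in Corn Oil Control and 6.73, 7.31 and 7.67 in DBCP. After recovery they were 7.15, 7.45 and 7.73 in corn oil and 7.35, 7.61 and 7.89 in DBCP. The groups overlapped at both times, but DBCP arrays sat mostly low without recovery and mostly high after it: 5 of 20 lay above the corn oil mean without recovery and 15 of 19 after it. The DBCP difference was -0.18 ± 0.06 (SE) without recovery and 0.19 ± 0.06 (SE) after it, an interaction of 0.37 ± 0.08 (SE), with an unadjusted p of 4.78e-05 and a limma adjusted p of 0.454. A second, dimmer probe set of Rab18 (mean level 5.74) gave 0.01 ± 0.09 (SE), so the probe sets of this gene disagree.

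Vegfc, a growth factor of lymphatic vessels, was the next gene above 0. Its values ran from 6.66 through a median of 6.91 to 7.30 in Corn Oil Control and from 6.45 through 6.87 to 7.07 in DBCP, and after recovery from 6.40 through 6.84 to 7.13 in corn oil and from 6.71 through 7.03 to 7.30 in DBCP. The ranges overlapped at both times, with 17 of 19 DBCP-Recovery arrays above the corn oil mean against 5 of 20 without recovery. Its interaction was 0.32 ± 0.08 (SE). Of the 10 measured members of the VEGF family and its receptors, Kdr (0.13) and Nrp2 (0.14), receptors of these ligands, were also above 0 at an unadjusted p under 0.05. Vegfb (-0.17) was below 0, Vegfa itself was at 0.03, and the median of the list was 0.03, as was the median of all probe sets. With Vegfc, 3 of the 10 (30%) were above 0 at an unadjusted p under 0.05 and 1 (10%) below, beside 5.67% and 6.78% of all genes. Vegfc was picked by its p and the list was chosen with earlier results of these data known, so these shares are a description only.

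Mettl7b, a methyltransferase-like protein of lipid droplets and the endoplasmic reticulum, had values of 6.83, 7.02 and 7.38 (lowest, median, highest) in Corn Oil Control and 6.70, 6.93 and 7.17 in DBCP. After recovery they were 6.42, 6.90 and 7.01 in corn oil and 6.57, 6.98 and 7.37 in DBCP. Here it was the corn oil arrays that lay lower after recovery, by 0.23 ± 0.05 (SE) on the mean, while the DBCP arrays stayed within 0.04 ± 0.05 (SE) of their earlier mean. The interaction was 0.27 ± 0.07 (SE), with a limma adjusted p of 0.454.

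The other genes of smallest p above 0 were Slco1a4 (an organic anion transporter, 0.39), Vsig2 (an immunoglobulin-domain protein, 0.27), Alg6 (a glucosyltransferase of N-glycosylation, 0.26), Kin (a DNA- and RNA-binding protein, 0.25), S1pr4 (a sphingosine 1-phosphate receptor, 0.25), Ms4a10 (a membrane-spanning protein, 0.22) and Mul1 (a mitochondrial ubiquitin ligase, 0.20). None of the 10 was in the brightest bin of probe sets. Vsig2 and S1pr4 had the pattern of Mettl7b: corn oil arrays were 0.27 and 0.25 lower after recovery, while DBCP arrays differed by less than 0.01 between the times. Slco1a4 had the pattern of Rab18, with DBCP arrays 0.30 higher after recovery and corn oil arrays 0.09 lower.

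The largest interactions above 0 by size had larger errors. Golt1b, a Golgi transport protein, was at 0.53 ± 0.20 (SE). The olfactory receptor genes Or4x6 and Or10x1b were at 0.49 ± 0.19 and 0.48 ± 0.20 (SE), at low to middling mean levels of 5.45 and 6.64. All 3 had the limma adjusted p of 0.454.

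Below 0, the smallest unadjusted p and the largest size both belonged to Fndc8, a fibronectin type III domain protein with mainly testicular expression. Its lowest, median and highest values were 8.32, 9.38 and 10.03 in Corn Oil Control and 9.13, 9.82 and 10.97 in DBCP. After recovery they were 8.57, 9.10 and 10.16 in corn oil and 8.54, 8.96 and 9.40 in DBCP. DBCP arrays were thus mostly high without recovery, with 18 of 20 above the corn oil mean, and mixed after it, with 7 of 19 above, although the ranges overlapped both times. The DBCP difference was 0.55 ± 0.12 (SE) and then -0.13 ± 0.13 (SE), an interaction of -0.69 ± 0.18 (SE) with an unadjusted p of 2.18e-04 and a limma adjusted p of 0.454. Leaving out any 1 of the 78 arrays kept the value between -0.73 and -0.63.

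Mief1, an outer mitochondrial membrane protein that recruits the fission machinery, ran from 6.78 through a median of 6.98 to 7.23 in Corn Oil Control and from 6.94 through 7.12 to 7.56 in DBCP. After recovery it ran from 6.82 through 7.04 to 7.28 in corn oil and from 6.78 through 6.98 to 7.46 in DBCP, where replicate 7 was the highest. DBCP arrays overlapped the corn oil arrays at both times, with 18 of 20 above the corn oil mean and then 5 of 19. The interaction was -0.25 ± 0.07 (SE). Mtfr1l (-0.42) and Mtfr1 (-0.46 and, on its second probe set, -0.44), regulators of mitochondrial fission, and the fission adaptor Fis1 (-0.17) were also below 0 at an unadjusted p under 0.05, and the protease Oma1 (0.21) was above. The 12 measured genes of mitochondrial fission and fusion had a median of -0.13, with 4 below 0 and 1 above at that threshold, or 33.3% and 8.33% beside 6.78% and 5.67% of all genes. Among the 12 genes, 2 lie in the brightest bin, and both are among the 4. Of the 4, Mief1 and Mtfr1l are also among the 10 genes of smallest p below 0. The list was chosen with earlier results of these data known, so its share is a description only. In arrays numbered 1 to 10 the median was -0.01, with 0 members below 0 at that threshold, and in those numbered 11 to 20 it was -0.20. The fusion proteins Mfn1 (0.05), Mfn2 (-0.19) and Opa1 (-0.09) did not reach it.

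**Figure D2:**
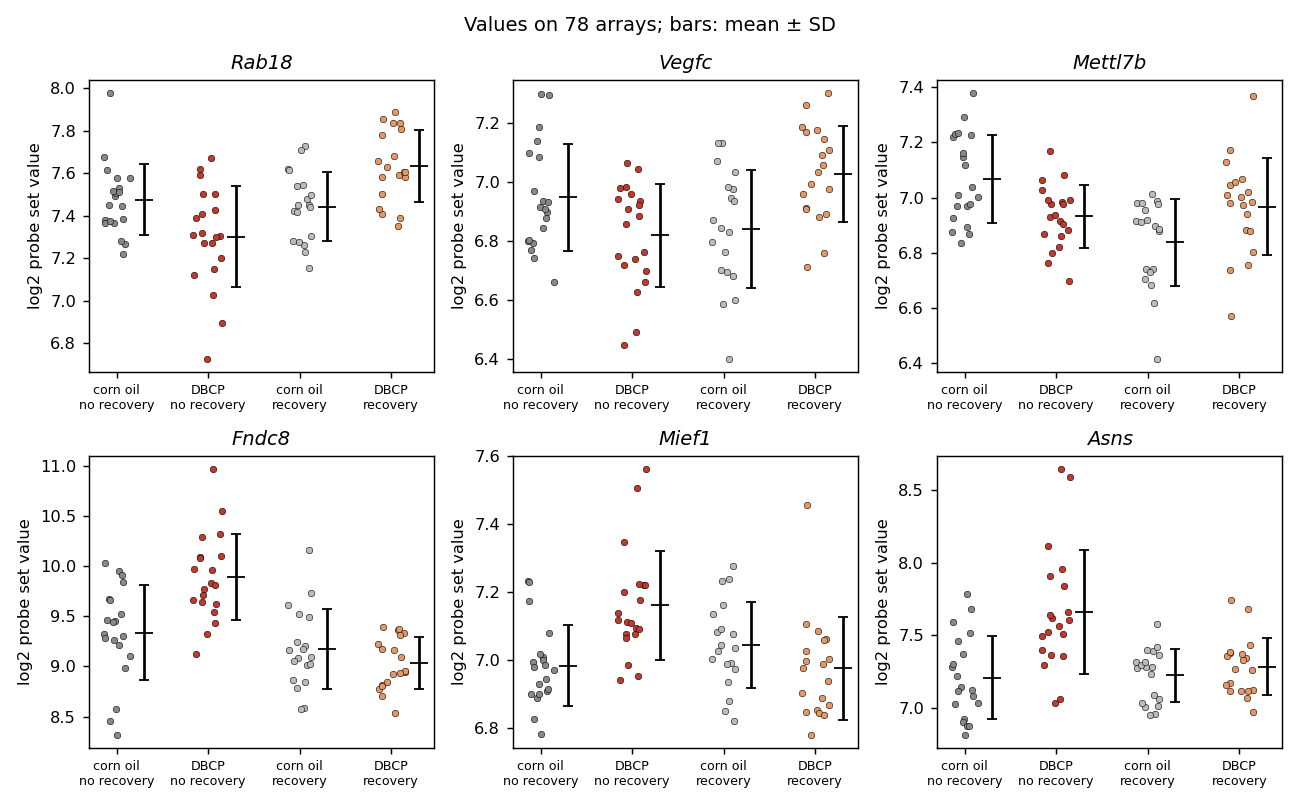
Deposited log2 value (y axis) of 6 genes on each array in the 4 groups (x axis), with the mean and SD beside the points. Rab18, Vegfc and Mettl7b have an interaction above 0, and Fndc8, Mief1 and Asns one below 0; the groups overlap in every panel.

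The other 8 genes of smallest p below 0 have roles in membrane traffic, cytoskeleton, metabolism and signalling. Rab11b (recycling endosomes) was at -0.59 ± 0.17 (SE), and Rab1b (transport from the endoplasmic reticulum to the Golgi) at -0.37 ± 0.11 (SE), or -0.26 on its other probe set. Capzb, the beta subunit of the actin capping protein, was at -0.58 ± 0.16 (SE). The glycolytic enzyme Eno1 was at -0.36, -0.36 and -0.35 on its 3 probe sets. Pkig (an inhibitor of protein kinase A, -0.25), Bcl7b (a subunit of a chromatin remodelling complex, -0.28) and Klk1c9 (a kallikrein-related protease, -0.42) completed the set with Mtfr1l. Of the 10 genes below 0, 5 were in the brightest bin, and in all 10 the highest DBCP-Recovery array was replicate 7.

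In all 20 genes of smallest p the DBCP differences of both times had opposite signs, a form that choosing on their difference favours. The 20 had the same sign in arrays numbered 1 to 10 and in those numbered 11 to 20, and the size was larger in the second set for 18. Since both sets took part in the choice, this is a description only. The difference between the sets was tested for every probe set, and 0 passed (lowest limma adjusted p 0.913), with 1429 at an unadjusted p under 0.05.

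The groups whose time changes made up an interaction below 0 differed between genes. For Rab11b and Rab1b the corn oil arrays were 0.62 ± 0.12 and 0.36 ± 0.07 (SE) higher after recovery, while DBCP arrays differed by 0.03 and by less than 0.01. For Capzb, Fndc8 and Eno1 it was the DBCP arrays that were lower after recovery, by differences of -0.54, -0.86 and -0.43, against 0.04, -0.17 and -0.07 in corn oil. The median of Fndc8 was lower in both recovery groups than in Corn Oil Control.

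Most measured genes of the late spermatid had estimates below 0, with no member past the adjusted threshold, and their medians differed in size between arrays numbered 1 to 10 and 11 to 20. In the first set and the second they were -0.06 and -0.38 for chromatin condensation, -0.02 and -0.24 for the sperm tail, -0.03 and -0.25 for spermatid regulators, and 0.01 and -0.14 for the acrosome. The difference of these medians between the sets was not tested. Among 13 chromatin condensation genes, 10 were below 0, with a median of -0.22. Of these, H1f7 (a spermatid linker histone, -0.39), Prm2 (-0.55) and Prm1 (-0.23), the protamines that replace histones, had an unadjusted p under 0.05. The transition proteins Tnp1 (-0.42 ± 0.31, SE) and Tnp2 (-0.30 ± 0.19, SE), which act between histones and protamines, did not. The 3 genes below that threshold are 23.1% of the list, beside 20.0% in the brightest bin, where 6 of the 13 lie.

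Prm1 shows how narrow these differences were. Its lowest, median and highest values were 12.29, 13.02 and 13.43 in Corn Oil Control, 12.67, 13.15 and 13.54 in DBCP, 12.37, 12.87 and 13.26 in Corn Oil Control-Recovery and 12.38, 12.83 and 13.17 in DBCP-Recovery. The ranges overlapped almost fully, and the SDs of the groups were 0.21 to 0.27. Its DBCP difference was 0.17 ± 0.07 (SE) without recovery and -0.05 ± 0.07 (SE) after it.

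Of 26 sperm tail genes, 24 were below 0, with a median of -0.12, which became -0.07 without DBCP replicate 13 alone. After Fndc8 and Ppef1 (-0.67 ± 0.23, SE), the third largest size of all named genes below 0 was that of Akap4. Akap4, the main anchoring protein of the fibrous sheath, also had the largest size among the tail genes. Its lowest, median and highest values were 8.63, 10.01 and 11.06 in Corn Oil Control, 9.67, 10.47 and 12.3 in DBCP, 8.35, 9.14 and 9.94 in Corn Oil Control-Recovery and 8.31, 9.24 and 10.38 in DBCP-Recovery. The high end of the DBCP group, replicate 13, is an array of low weight, and all groups overlapped. Both treatments were lower after recovery, corn oil by -0.72 ± 0.19 (SE) and DBCP by -1.37 ± 0.19 (SE), so that the interaction of -0.65 ± 0.27 (SE) is the excess in DBCP. Fscb (fibrous sheath, -0.50) and Odf2 (outer dense fibres, -0.37) were the other tail genes at an unadjusted p under 0.05, a share of 11.5% of the list. This share stands beside 20.0% in the brightest bin, where 7 of the 26 lie, and 6.78% over all genes. Odf1 (-0.02 ± 0.04, SE) and Smcp (-0.03 ± 0.04, SE) were the brightest tail genes. They lie close to the highest value of any probe set, 14.69, with SDs within groups of 0.07 to 0.10, and whether their range was limited there was not tested, so no absence of change is read from them.

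Sperm energy metabolism had the lowest median of the 28 gene lists, -0.23 over 21 genes, every one of them below 0. In arrays numbered 1 to 10 the median was -0.09, with 15 below 0 and 0 at an unadjusted p under 0.05, against -0.42 in those numbered 11 to 20. Over all arrays, at an unadjusted p under 0.05 were Eno1, Aldoa and Aldoart2 (aldolases, -0.34 and -0.35), Gapdhs (the sperm form of glyceraldehyde-3-phosphate dehydrogenase, -0.56), Pgk2 (a sperm phosphoglycerate kinase, -0.41) and Ldhc (the sperm lactate dehydrogenase, -0.46), which is 28.6% of the list beside 20.0% over the brightest bin, where 12 of its 21 members lie. The median DBCP difference was 0.20 without recovery and -0.04 after it.

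Spermatid regulators, a list of spermiogenesis genes with other roles, were below 0 in 19 of 26 cases, with a median of -0.16 and 8 at an unadjusted p under 0.05, all 8 among the 11 members in the brightest bin. The 8 are 30.8% of the list, beside 20.0% in that bin and 6.78% over all genes. Without DBCP replicate 13 the median was -0.09. The 8 included Fndc8, Spata18 (mitochondrial quality control, -0.41), Spata6 (assembly of the sperm neck, -0.48), Spata20 (-0.50) and the kinase Tssk3 (-0.34). Of 16 genes for channels and motility signalling, 12 were below 0 and 5 at an unadjusted p under 0.05, with a median of -0.05, or -0.02 without DBCP replicate 13. With 0 of the 16 in the brightest bin, the 31.2% below 0 stands beside 6.78% of all genes. These 5 were the kinase subunits Prkaca (-0.21) and Prkar2a (-0.56), Gsk3a (-0.38), the phosphatase Ppp1cc (-0.37) and the sodium pump subunit Atp1a4 (-0.44). Acrosome genes had a median of -0.05 over 22 members. It was -0.02 without DBCP replicate 13, -0.03 without the 6 arrays of low weight and -0.04 with the span as covariate. After quantile normalization it was -0.11, and that of the channel list -0.08. Of the 22, 5 (22.7%) were below 0 at that threshold, among them Acr (acrosin, -0.37) and Ace (angiotensin-converting enzyme, -0.34). With 3 of the 22 in the brightest bin, this share stands beside 6.78% of all genes and 20.0% in that bin. Meiosis genes, active in earlier germ cells, had a median of 0.03. At that threshold 2 of 20 (10%) were above 0, beside 5.67% of all genes, and 0 below.

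Several lists shared by all cells also had medians below 0, while those of DNA repair and apoptosis, described further on, were 0.03 and 0.02. Of 72 respiratory chain and ATP synthase genes 64 were below 0, with a median of -0.18. At an unadjusted p under 0.05 were 18 below (25% of the list), led by Atp5f1e (ATP synthase epsilon, -0.47 ± 0.15, SE). Also at that threshold were 3 above, among them Ndufa2 (complex I, 0.20). Of the 72, 21 lie in the brightest bin, with 7 of the 18. The shares to compare are 20.0% in that bin and 6.78% over all genes, that bin included. In arrays numbered 1 to 10 alone the median was -0.09, with 0 members below 0 at that threshold. Of 70 cytosolic ribosomal protein genes 57 were below 0, with a median of -0.16 and 21 (30%) at that threshold, such as Rpl35 (-0.25), Rpl32 (-0.33) and Rplp1 (-0.42). With 59 of the 70 in the brightest bin, and all 21 among those 59, this share stands beside the 20.0% of that bin. After quantile normalization the median was -0.10, with 9 below 0 and 3 above at that threshold, and in arrays numbered 1 to 10 alone 1 was below.

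Translation initiation factors, a list that by its name pattern also holds kinases and inhibitors of initiation, had a median of -0.16 and 15 of 43 (34.9%) below 0 at an unadjusted p under 0.05. Eif4b (a helper of the RNA helicase, -0.29) and Eif2s1 (the alpha subunit of the factor that brings the initiator tRNA, -0.58) were among them. Of the 43, 10 lie in the brightest bin, with 8 of the 15. The shares to compare are 20.0% in that bin and 6.78% over all genes, that bin included. No share was computed over the genes outside it. Glutathione and antioxidant enzymes, glutathione conjugation being a route of DBCP metabolism, had a median of -0.14, with 33 of 47 below 0 and 11 (23.4%) at that threshold, 7 of them among its 13 members in the brightest bin. The shares to compare are again 20.0% in that bin and 6.78% over all genes. Among the 11 were Gstm1 (-0.37), Gstm2 (-0.50), Gstm5 (-0.41) and Gsta4 (-0.48), all glutathione transferases, and the peroxidases Gpx4 (-0.42) and Prdx6 (-0.49). The Gstm genes are related in sequence, and whether their probe sets share signal was not tested. The time change in corn oil was 0.53 for Gstm1 and -0.29 for Gstm5. Of the same lists, Rab GTPases had a median of -0.08, with 7 of the 54 in the brightest bin. At an unadjusted p under 0.05 were 10 of the 54 (18.5%) below 0 and 1 (1.85%) above, beside 6.78% and 5.67% of all genes. Of the 10, 4 lie in the brightest bin. Rab11b, Rab18 and Rab1b, all on this list, are among the 20 genes of smallest p, so its counts are a description only. The list holds Rab1b by its other, brighter probe set (-0.26). The proteasome had a median of -0.10, with 3 of its 37 members in the brightest bin. At that threshold 4 of the 37 (10.8%) were below 0 and 2 (5.41%) above, beside 6.78% and 5.67% of all genes.

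The time changes behind these interactions are given side by side, with no test between lists. The median time change of respiratory chain genes was 0.18 in corn oil and 0.03 in DBCP, and of ribosomal protein genes 0.16 and 0.05. That of energy metabolism genes was -0.10 in corn oil and -0.31 in DBCP, of spermatid regulators -0.13 and -0.23, of chromatin condensation genes -0.10 and -0.20, of sperm tail genes -0.12 and -0.18 and of channel genes -0.03 and -0.11. For acrosome genes it was -0.12 in corn oil and -0.10 in DBCP, so that the lower value was not in DBCP. In these 8 lists the median DBCP difference lay between -0.06 and 0.03 after recovery, and between 0.07 and 0.20 without it.

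**Figure D3:**
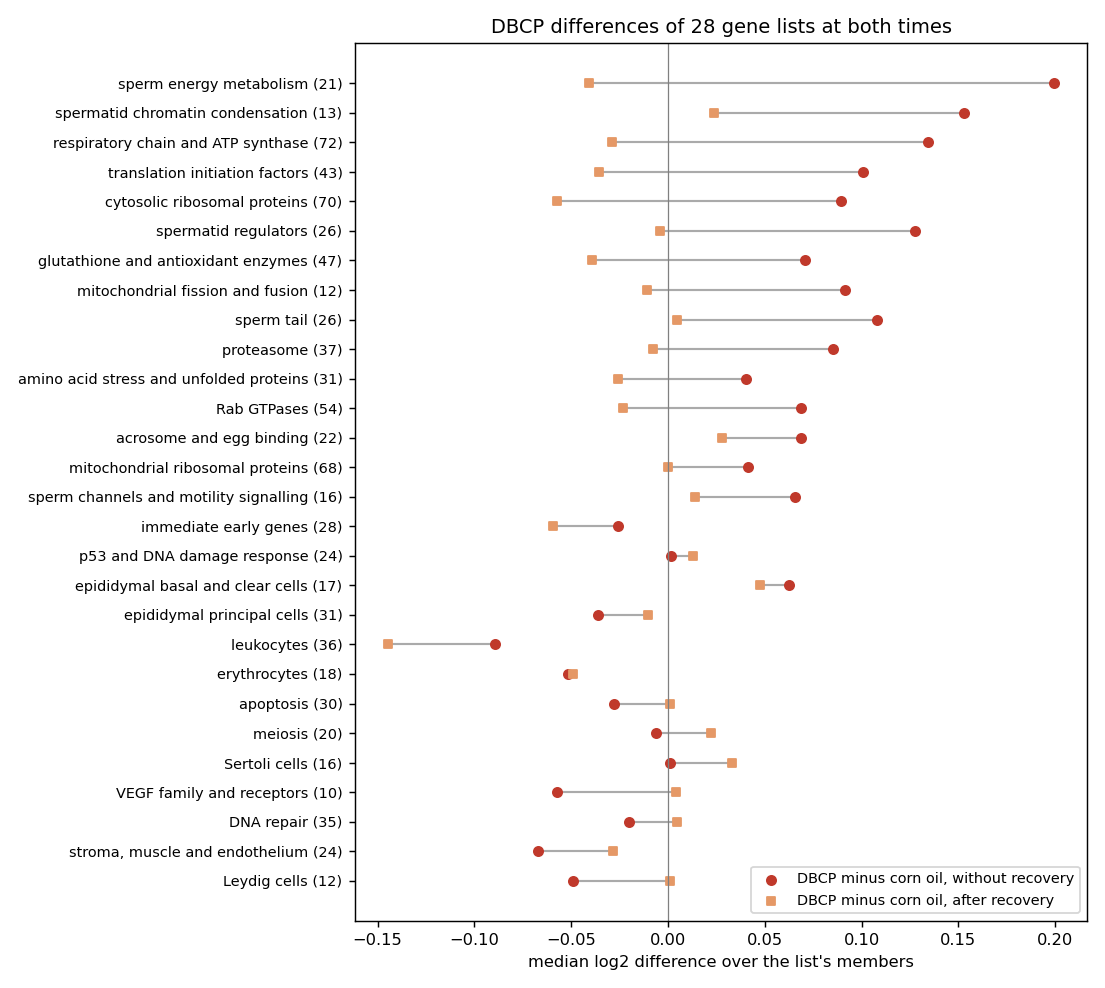
Median DBCP minus corn oil difference (log2, x axis) over the measured members of 28 gene lists (y axis, number of members in brackets), without recovery (circles) and after recovery (squares); the gap between the marks shows the interaction. Sperm energy metabolism goes from 0.20 to -0.04 and respiratory chain genes from 0.13 to -0.03, while erythrocyte genes are at -0.05 both times.

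The spread of single arrays was wide against these shifts. The mean of the respiratory chain list per array was 7.43 ± 0.14 (SD, n = 20) in Corn Oil Control, 7.57 ± 0.20 (SD, n = 20) in DBCP, 7.63 ± 0.16 (SD, n = 19) in Corn Oil Control-Recovery and 7.61 ± 0.21 (SD, n = 19) in DBCP-Recovery, with the highest array, 8.22, in the last. The mean of the sperm tail list was 8.03 ± 0.20, 8.20 ± 0.30, 7.84 ± 0.13 and 7.84 ± 0.17 (SD) in the same order, its highest array, at 9.05, being in DBCP. Without the 6 arrays of low weight, the list medians were -0.06 for the sperm tail, -0.11 for chromatin condensation, -0.08 for spermatid regulators, -0.20 for energy metabolism, -0.16 for the respiratory chain and -0.13 for ribosomal proteins. With the span as covariate they were -0.04, -0.03, -0.02, -0.04, -0.03 and -0.01. After quantile normalization, which turned the balance of the brightest bin, these medians stayed below 0. They were then -0.13, -0.20, -0.15, -0.17, -0.16 and -0.10 in the same order.

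**Figure D4:**
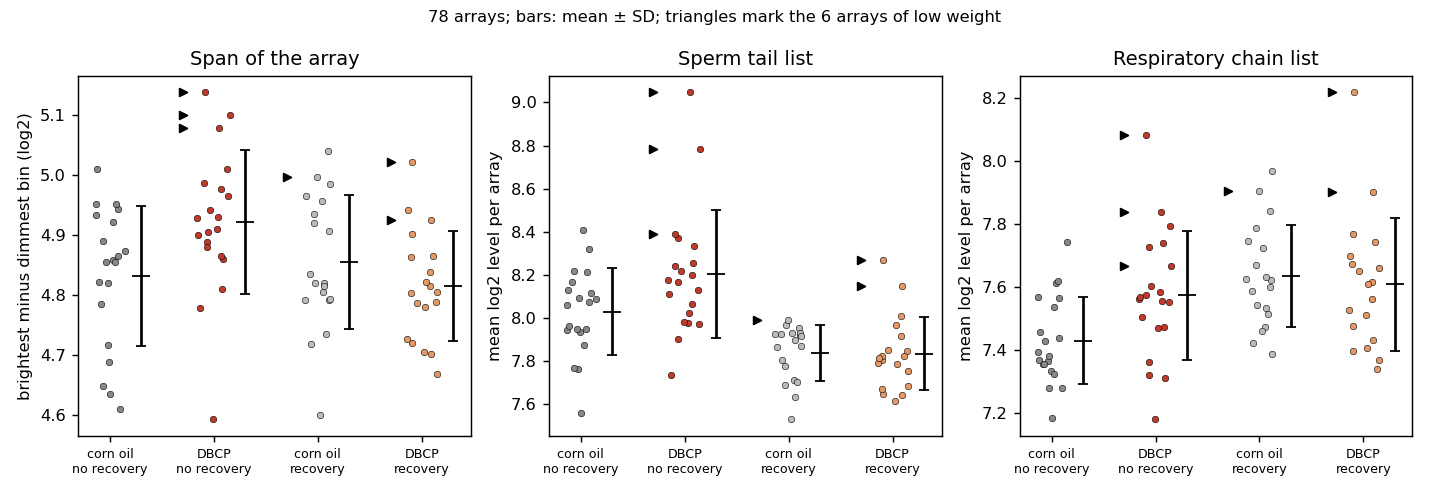
Span of each array (brightest minus dimmest bin, log2), mean level of 26 sperm tail genes and mean level of 72 respiratory chain genes (y axes) in the 4 groups (x axes), with mean and SD; triangles mark the 6 arrays of low weight. The 3 marked DBCP arrays hold the 3 highest spans of that group, and the marked DBCP-Recovery arrays its highest sperm tail values.

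Apart from the glutathione and antioxidant list given above, genes tied to toxic response gave few low p-values. Asns (asparagine synthetase, a target of the amino acid response) ran from 6.82 through a median of 7.13 to 7.78 in Corn Oil Control and from 7.03 through 7.58 to 8.64 in DBCP. After recovery it ran from 6.95 through 7.28 to 7.58 in corn oil and from 6.97 through 7.27 to 7.74 in DBCP. The DBCP arrays reached higher without recovery, with an overlap, and both recovery groups covered nearly the same range. Its interaction was -0.39 ± 0.13 (SE), with a limma adjusted p of 0.454. The 31 genes of the amino acid and unfolded protein list had a median of -0.09. Asns and Herpud1 (a protein of endoplasmic reticulum degradation, -0.39) were below 0 at an unadjusted p under 0.05. These 2 are 6.45% of the list, near the 6.78% of all genes, and 7 of the 31 lie in the brightest bin.

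The p53 and DNA damage list had a median of -0.01 over 24 genes, with Perp (a p53 target in cell junctions, -0.33) below 0 and Chek1 (a checkpoint kinase, 0.21) above at an unadjusted p under 0.05. Cdkn1a, the p53-induced inhibitor of the cell cycle, was at -0.03 ± 0.08 (SE). In DNA repair, with a median of 0.03 over 35 genes, 20 were above 0 and 15 below. At an unadjusted p under 0.05 were Ogg1 (removal of oxidised guanine, 0.21 ± 0.06, SE), Fancd2 (0.12) and Rad54l (0.18) above 0. Below 0 at that threshold were Lig3 (-0.27) and Polb (-0.28), both of base excision repair. These shares, 8.57% above and 5.71% below, are near the 5.67% and 6.78% over all genes. Mgmt, which removes alkyl groups from guanine, was at -0.08 ± 0.07 (SE), and Hmox1 (haem oxygenase) at 0.03 ± 0.10 (SE). Apoptosis genes had a median of 0.02, with 17 of 30 above 0 and 13 below. At an unadjusted p under 0.05, Bak1 (-0.23), an effector of mitochondrial permeability, was below 0 and its relative Bok (0.15) above. That is 3.33% of the list in each direction. Immediate early genes, with a median of -0.02, had 3 of 28 (10.7%) below 0 at that threshold, beside 6.78% of all genes.

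Stard10 (a lipid transfer protein, -0.52 ± 0.17, SE) and Uchl1 (a ubiquitin hydrolase, -0.32 ± 0.11, SE) had a DBCP difference of 0.54 and 0.34 without recovery and of 0.02 both after it. These values, like that of Asns, describe genes picked because earlier results on these arrays showed their DBCP differences.

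Over all arrays, markers of other cells had medians near 0. Leukocyte genes had a median interaction of 0.01 over 36 members, erythrocyte genes 0.01 over 18, epididymal principal cell genes 0.01 over 31, and basal and clear cell genes 0.00 over 17. Sertoli (0.03), Leydig (0.05) and stromal (0.04) lists were close to the median of all probe sets, 0.03. In arrays numbered 1 to 10 and 11 to 20 the medians were 0.09 and -0.08 for leukocyte genes. For erythrocyte genes they were 0.03 and -0.07, and the difference between the sets was not tested. The 3 erythrocyte genes in the brightest bin had a median of -0.19 over all arrays. In arrays numbered 11 to 20, 2 leukocyte and 5 erythrocyte genes were below 0 at an unadjusted p under 0.05, and 2 erythrocyte genes above. Over all arrays 0 members of either list were at that threshold. Among the 17 basal and clear cell genes 9 were above 0 and 8 below. Of the 17, 4 (23.5%) were below 0 at that threshold, beside 6.78% of all genes, and 0 above. Foxi1 (a clear cell transcription factor, -0.46) had the smallest p, and 2 of the 17 lie in the brightest bin. Clu (clusterin, -0.25), abundant in Sertoli and epididymal cells, and Lhcgr (the luteinising hormone receptor, -0.34) were below 0 at that threshold.

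Hbb-b1 (beta globin) had a lowest, median and highest value of 9.85, 10.75 and 11.72 in Corn Oil Control and 9.59, 10.41 and 11.05 in DBCP, and of 9.97, 11.00 and 11.54 in corn oil and 10.00, 10.31 and 11.40 in DBCP after recovery. The DBCP groups had the lower median at both times, with an overlap. Its interaction was -0.16 ± 0.19 (SE). It was 0.26 ± 0.28 (SE) in arrays numbered 1 to 10 and -0.60 ± 0.24 (SE) in those numbered 11 to 20, and the difference had a limma adjusted p of 0.913. Hbb (0.27 and -0.68) and Alas2 (haem synthesis in red cells, 0.10 and -0.55) had the same order of signs.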

How the data were processed

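RNA from rat sperm was measured on 78 arrays. The deposited values are on a log2 scale, per the values themselves; the background correction, normalization and summary of probes are not stated in the labels, and the submitters' processing notes name only limma, without a version. Of 29214 probe sets, 15310 carry 1 gene symbol in the platform annotation, 323 several and 13581 none; 15279 of the 15310 were matched by Entrez identifier to RefSeq symbols (assembly GRCr8), giving 14506 genes. A gene with several probe sets was counted once, by the brightest.

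With limma 3.58.1 in R 4.3.3, a model with 1 mean per group was fitted to all 78 arrays, and the interaction tested with moderated limma statistics and Benjamini-Hochberg adjustment over all probe sets (threshold 0.05). The same procedure was run on simulated data, with independent noise for each probe set and known shifts added in DBCP-Recovery. That simulation held no variation shared across an array, so it does not bear on the array-wide differences given above. Genes were named by rule: the 10 of smallest p in each direction, the 3 largest in each direction, the 2 brightest and the smallest p of each list, and 20 chosen genes; others were named after their values were seen. The members and the 28 gene lists were chosen with earlier results of these data known. Alternatives were quantile normalization, centring, filters on level and annotation, array weights, priors, blocks, covariates, the 2 runs of replicate numbers and leaving out each array. Columns of values not used numbered 0. The number of arrays limits the precision.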

Additional observations from a re-analysis of the deposited data

How the results depend on the processing

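The count of probe sets past a limma adjusted p of 0.05 was 0 under every alternative and with each of the 78 arrays left out, where 3170 probe sets had an unadjusted p under 0.05. That second count was 763 in arrays numbered 1 to 10 alone, 983 with the sperm tail level as covariate, 717 with the array span as covariate and 4765 with leukocyte, erythrocyte and principal cell levels as covariates. In arrays numbered 11 to 20 alone it was 4403, and with limma array weights 4473. It was 1859 among the brighter 14607 probe sets, 667 in the brightest 2922, 1897 among probe sets with 1 symbol and 1805 with 1 per gene, where fewer were tested. Leaving out 1 array gave 2333 (Corn Oil Control-Recovery replicate 11) to 5712 (DBCP-Recovery replicate 7), and leaving out the 6 arrays of low weight 2525. Except where fewer probe sets were tested, the cause was not tested.

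With replicate number as a replicate block, 0 probe sets passed and 2223 had an unadjusted p under 0.05. Over 114 pairs of equal number the correlation of deviations ran from -0.49 to 0.57 (median 0.009), with 41 over 0.1, and an array correlated best with its own number in 8 of 114 cases, so the numbers were not taken to pair the arrays.

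In 3 settings (trended prior, no moderation, set block) the estimates are those of the fit itself and cannot change sign. Over the other 10 settings, 17 of 440 values of 44 named probe sets changed sign, in 9 genes. The 20 genes of smallest p, chosen on the same arrays for large estimates against their errors, had 0 changes. Hmox1 was -0.019 after quantile normalization, -0.0027 in numbers 11 to 20, -0.00056 with the tail level and -0.061 with the span. Cdkn1a was 0.00041 with array weights, 0.011 without low-weight arrays and 0.076 in numbers 1 to 10, where Hbb was 0.27, Hbb-b1 0.26 and Alas2 0.10. With the tail level as covariate Tnp1 was 0.099, Tnp2 0.00039 and Odf1 0.0044. With the span Tnp2 was 0.033, Odf1 0.050, Smcp 0.029 and Hbb-b1 0.018. Of 17 list medians below 0, 10 kept their sign under all 10 of these settings, and of 11 above 0, 0 did. The span covariate was chosen after seeing the data.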
